A study of Mus musculus with 44 samples.

Results

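The 41 genes described here are interferon-stimulated genes, a set whose transcription rises when a cell receives an interferon signal. They were taken from a list of symbols, and each was found in the deposited table of 35249 genes and among the 14862 genes with enough counts to test. The measurements are RNA sequencing counts from 44 mouse livers, 1 library per mouse, grouped by genotype and diet. The genotypes are wild type (WT), a knockout of Ripk3 (Ripk3-/-, here Ripk3KO) and a knockout of Mlkl (Mlkl-/-, here MlklKO). RIPK3 is the kinase and MLKL the membrane-rupturing protein of necroptosis, a lytic form of cell death that is blocked in each knockout. From 2 months of age the mice were fed for 6 months on normal chow (control diet) or on food that lacked choline, low in fat in one case (CD-LFD) and high in fat in the other (CD-HFD). There were 6 WT mice on each diet, 6, 3 and 4 Ripk3KO mice on the diets in that order, and 6, 4 and 3 MlklKO mice. Neither knockout is described as restricted to a cell type, and sex, strain and litter are not given in the labels.

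Interferons are secreted proteins of 3 types that act through cell-surface receptors and JAK kinases. Type I and type III interferons activate the factor ISGF3, which holds STAT2 and IRF9 and binds a DNA element called the interferon-stimulated response element (ISRE). Interferon gamma, the type II form, acts mainly through a shorter palindrome called the gamma-activated site (GAS). The products bind foreign RNA, degrade it, block translation, coat intracellular vacuoles, modify proteins with the ubiquitin-like ISG15, or prepare peptides for MHC class I. In liver, hepatocytes, Kupffer cells, endothelial cells and recruited leukocytes can all carry this response.

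The sequences just before the start sites of these genes are shown because the ISRE is the feature by which the family is usually recognised. RefSeq promoters (build GRCm38.p6, which differs from the build named for the counts, so no count was placed on these coordinates) were matched for 31 of the 41 genes. The ISRE core was searched as GAAANNGAAA on either strand within the 250 bases before the start. It was found in 16 of the 31 (51.6%), in 3.39% of the 10926 tested genes with a promoter in the table, and in 2.98% of all 32851 promoters there. The GAS core TTCNNNGAA, a palindrome and so the same on either strand, was found in 9 of the 31 (29%), against 7.33% of tested genes and 7.02% of all promoters. The following windows, 5′ to 3′ on the gene's own strand, hold the matches in capitals, and overlapping or adjacent matches run together.
Isg15: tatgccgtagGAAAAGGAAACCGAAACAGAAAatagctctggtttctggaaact
Ifit1: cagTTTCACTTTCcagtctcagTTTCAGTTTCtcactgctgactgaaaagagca
Ifit3: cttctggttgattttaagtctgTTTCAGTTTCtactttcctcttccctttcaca
Oas1a: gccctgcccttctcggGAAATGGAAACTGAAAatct
Oas3: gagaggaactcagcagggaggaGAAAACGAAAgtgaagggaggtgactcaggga
Rsad2: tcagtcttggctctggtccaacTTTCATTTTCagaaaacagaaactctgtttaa
Gbp3: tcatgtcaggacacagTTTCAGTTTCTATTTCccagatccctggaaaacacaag
Igtp: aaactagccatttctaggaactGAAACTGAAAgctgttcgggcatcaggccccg
Irgm2: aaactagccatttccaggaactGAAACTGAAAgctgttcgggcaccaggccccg
Stat2: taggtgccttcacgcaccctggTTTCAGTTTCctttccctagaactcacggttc
In order, these lie at chr4:156200853-156200906 (minus strand), chr19:34640782-34640835 (plus), chr19:34583385-34583438 (plus), chr5:120907526-120907561 (minus), chr5:120777703-120777756 (minus), chr12:26456541-26456594 (minus), chr3:142559983-142560036 (plus), chr11:58199500-58199553 (plus), chr11:58214891-58214944 (plus) and chr10:128270254-128270307 (plus), all upstream of the annotated start. Between the last base of the match and the start there are 56 bases in Isg15, 4 in Oas1a, 65 in Oas3, 24 in Igtp and 212 in Stat2. The window of Ifit3 was the same, letter for letter, as that of its neighbour Ifit3b. A match is a string of letters and not a measured binding site.

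Group differences were tested by quasi-likelihood in edgeR and adjusted by the Benjamini-Hochberg method over the 14862 genes of each comparison, and a gene is called, and said to have risen or fallen, when its adjusted p is under 0.05. Levels are CPM (read counts scaled to a common library size with the TMM factors of edgeR), and are compared between mice but not between genes. Library totals were 2476268 to 12471844 counts in 43 libraries and 88204703 in WT CD-LFD replicate 3. Ripk3 held 0 to 2 counts in every Ripk3KO library except the library labelled Ripk3KO control replicate 5, which held 9 (1.26 CPM, against 0.51 to 4.87 CPM in WT libraries). Mlkl was counted in every MlklKO library (1.46 to 12.5 CPM). The highest value came from MlklKO mice on CD-HFD, in the library labelled replicate 1, against 14.2 to 17.6 CPM in WT mice on that diet. The log2 ratio of Arntl to Dbp, circadian genes that peak at opposite times of day, ran from 0.10 to 2.63 in WT control replicates 1, 3, 5 and 6, and was -5.67 and -7.47 in replicates 2 and 4. It was at most -0.27 in every other library.

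The mean log2 level of the 41 genes was 3.02 to 3.85 in the 6 WT control mice, 4.10 to 4.84 on CD-LFD and 4.87 to 5.54 on CD-HFD. The 3 ranges did not overlap. In Ripk3KO livers the ranges were 3.14 to 3.89, 4.57 to 5.29 and 4.95 to 5.59, and in MlklKO livers 3.23 to 3.81, 4.33 to 5.13 and 4.78 to 4.88. No liver on a choline-deficient diet reached down to the control range of its genotype, while the CD-LFD and CD-HFD ranges overlapped in each knockout. In bulk tissue a change in the number of expressing cells and a change in RNA per cell cannot be told apart, here and in every comparison that follows.

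**Figure D1:**
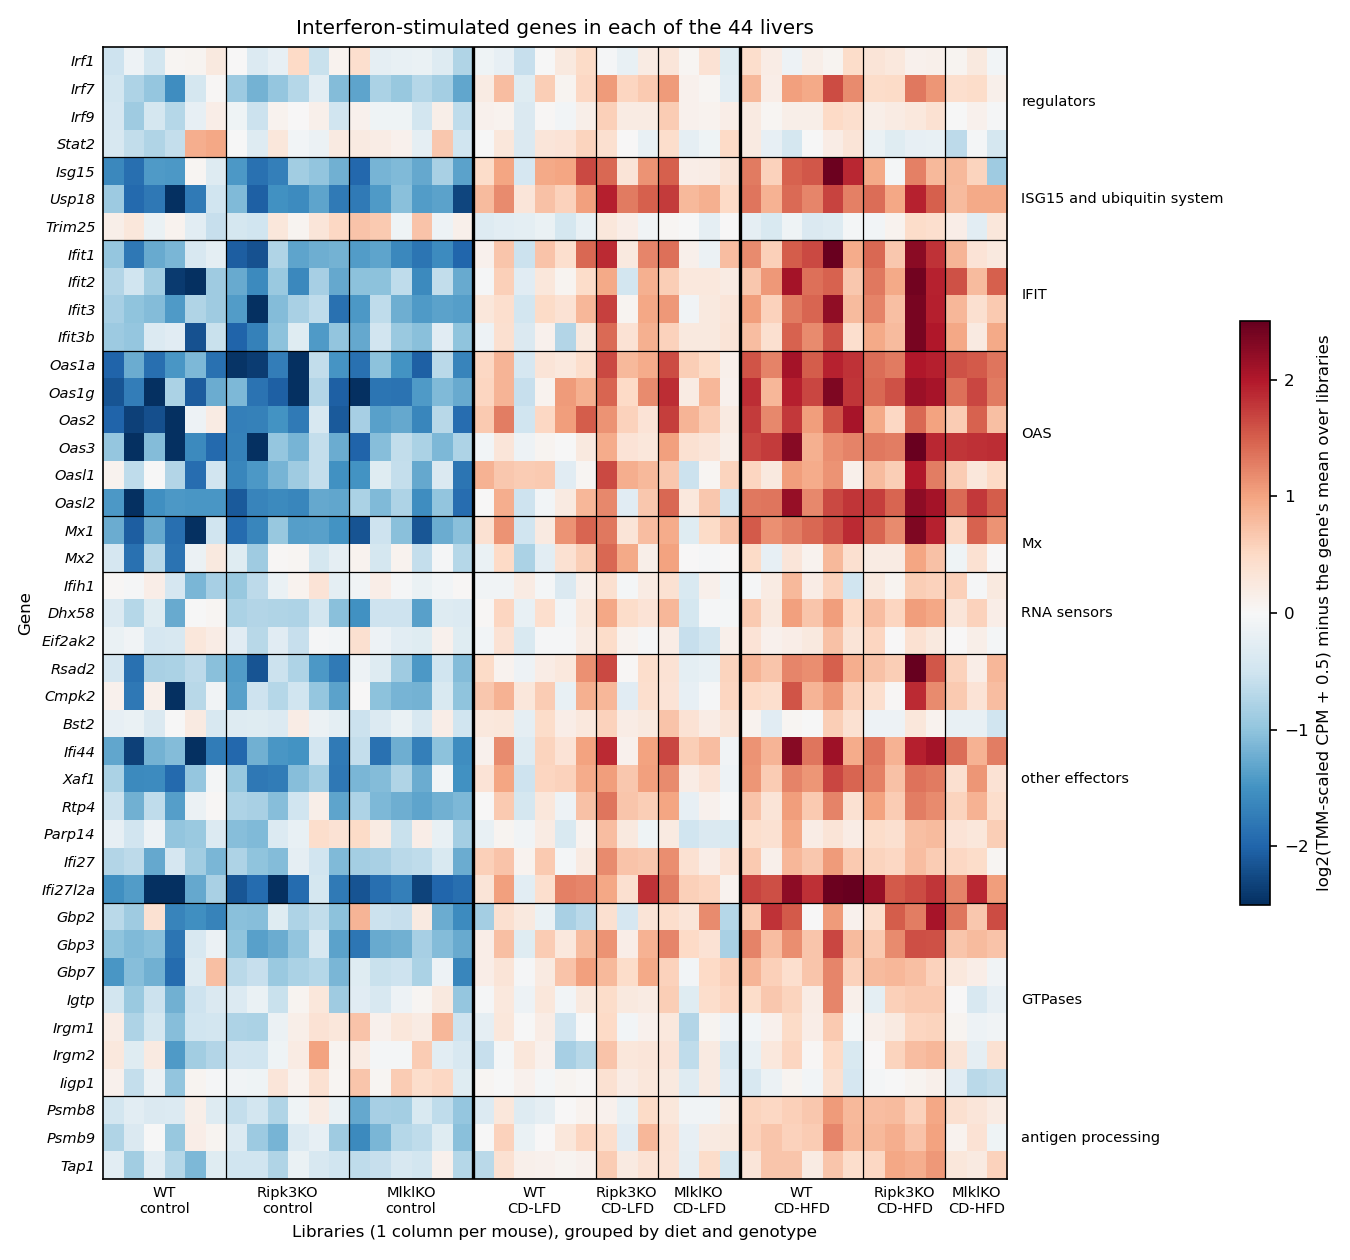
Level of each of the 41 genes (rows, grouped by role) in each of the 44 livers (columns, grouped by diet and genotype), as log2(TMM-scaled CPM + 0.5) minus the gene's mean over all libraries, with colours clipped at the ends of the scale. The control-diet columns are blue for most genes in all 3 genotypes, the CD-HFD columns are red, and Irf1, Stat2, Trim25, Irgm2 and Iigp1 are among the palest rows.

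In WT livers CD-HFD raised 35 of the 41 genes over control diet and lowered none. Over all genes, 47.7% were called in this comparison and 23.5% were called higher (3496 genes higher and 3586 lower, or 6813 and 1020 with library totals alone as the scale). The median log2 change of the 41 was 1.44, against -0.07 over all tested genes, and 39 of them were above 0 (45.8% of all tested genes). For 28 of the 41, every CD-HFD mouse lay above every control mouse, as did 14.3% of all tested genes. By role, the calls were 6 of 6 OAS genes (median log2 change 3.5), 4 of 4 IFIT genes (2.45), 2 of 2 Mx genes (2.17), 2 of 3 genes of the ISG15 system (2.71), 8 of 9 other effectors (1.53), 3 of 3 RNA sensors (0.56), 3 of 3 antigen-processing genes (1.06), 5 of 7 GTPases (1.24) and 2 of 4 regulators (0.48).

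Among the regulators, Irf7, the factor that amplifies type I interferon production, was at 19.0 to 57.3 CPM in WT control mice (median 36.8) and 63.3 to 176 CPM on CD-HFD (median 113). All 6 CD-HFD mice were above all 6 control mice, and the log2 change was 1.66 (SE 0.236, adjusted p 1.94e-07). Irf9, the DNA-binding subunit of ISGF3, rose less, by 0.64 on the log2 scale (SE 0.151, adjusted p 0.000529), from 29.3 to 61.2 CPM in controls to 56.0 to 76.9 on CD-HFD, ranges that overlapped. Its partner Stat2 was not called (log2 change -0.07, 95% interval -0.54 to 0.40, adjusted p 0.826). In control mice Stat2 stood at 95.4, 82.0, 74.7, 83.5, 239 and 247 CPM, so that replicates 5 and 6 lay above every CD-HFD mouse (92.9 to 158 CPM). Irf1, a factor induced directly by interferon gamma, was at 29.1 to 50 CPM in controls and 38.2 to 58.2 CPM on CD-HFD, and was not called (log2 change 0.32, 95% interval -0.04 to 0.67, adjusted p 0.135).

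In the ISG15 system, Isg15, the ubiquitin-like modifier itself, was at 4.15 to 17.3 CPM in controls (median 5.89) and 24.9 to 92.5 CPM on CD-HFD (median 48.6). The groups did not overlap, and the log2 change was 2.71 (SE 0.363, adjusted p 5.67e-08), a 6.55-fold rise. Usp18, the protease that removes ISG15 and restrains the type I receptor, ran from 0.307 to 9.51 CPM in controls and from 25.2 to 44.7 CPM on CD-HFD. Its log2 change was 2.86 (SE 0.288, adjusted p 8e-11). Trim25, a ubiquitin and ISG15 ligase that acts on the sensor RIG-I, was not called (-0.18, 95% interval -0.51 to 0.15, adjusted p 0.376).

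The IFIT proteins bind viral RNA that lacks the methylation marks of host messages. Ifit1 was at 3.17 to 10.2 CPM in controls (median 5.57) and 18.5 to 69.6 CPM on CD-HFD (median 31.7), with a log2 change of 2.52 (SE 0.354, adjusted p 1.52e-07). Ifit3, which stabilises IFIT1, was at 6.14 to 10 and 25.9 to 81.4 CPM, with a log2 change of 2.38 (SE 0.31, adjusted p 3.04e-08). Neither gene's groups overlapped. The transcripts of Ifit3 and Ifit3b share 50-base words over 51.2% and 45% of their lengths, so the split of reads between these copies is uncertain.

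The OAS genes encode sensors of double-stranded RNA that switch on the nuclease RNase L, and Oasl1 and Oasl2 are OAS-like relatives. They held 3 of the 5 largest changes in this comparison. Oas1a rose from 1.52 to 3.19 CPM (median 2.08) to 18.6 to 33.5 CPM (median 25.6). This was a 12.2-fold rise, 3.61 on the log2 scale (SE 0.327, adjusted p 5.31e-12). Oas1g rose by 4.20 (SE 0.446, adjusted p 3.27e-10) on the same scale, but 57.6% of the 50-base words of Oas1a and 54.7% of those of Oas1g also occur in other genes, each other included, so their separate values are uncertain. Oas3 was listed at 0 in WT control replicates 2 and 4 and reached 0.965 CPM at most in that group, against 4.86 to 13.4 CPM on CD-HFD (log2 change 3.97, SE 0.418, adjusted p 2.73e-10). Oasl2 was at 1.46 to 3.72 and 25.6 to 50.6 CPM (log2 change 3.40, SE 0.308, adjusted p 5.92e-12). In Oas2, control replicates 5 and 6 stood at 10.9 and 13.9 CPM and the other 4 at 1.23 to 2.62 CPM, all under the CD-HFD range of 25.2 to 51.2 CPM (log2 change 2.88, SE 0.4, adjusted p 1.22e-07). The smallest change in the family was that of Oasl1 (1.19, SE 0.285, adjusted p 0.000641).

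Mx1, a dynamin-like GTPase that traps viral nucleoproteins, ran from 0 to 2.44 CPM in controls and 8.63 to 14.5 CPM on CD-HFD (log2 change 3.34, SE 0.393, adjusted p 3.6e-09). The RNA sensors moved less. Ifih1, which encodes MDA5, a detector of long double-stranded RNA, had overlapping ranges of 14.6 to 37.2 and 23.3 to 58.1 CPM, and its log2 change of 0.56 (SE 0.201, adjusted p 0.0211) lost its call in 6 of the 20 other settings tried (adjusted p up to 0.123). Among the other effectors, Rsad2, the enzyme viperin that makes a chain-terminating nucleotide, rose from 2.68 to 8.14 CPM to 18.2 to 31.8 CPM (log2 change 2.02, SE 0.325, adjusted p 1.99e-06). Ifi27l2a, a small hydrophobic interferon-induced protein, was at 0.85 to 4.63 CPM in controls and 27.1 to 58.5 CPM on CD-HFD, a log2 change of 4.0 (SE 0.371, adjusted p 1.06e-11). Ifi44 was at 0 to 1.84 CPM and 8.51 to 23.7 CPM (log2 change 3.55, SE 0.424, adjusted p 4.9e-09). Ifi27 moved from 65.8 to 119 CPM to 175 to 336 CPM (log2 change 1.53, SE 0.184, adjusted p 6.23e-09). In each of these 4 effectors the CD-HFD mice lay wholly above the controls. Bst2, the tetherin that holds budding virus at the cell surface, did not separate (128 to 199 and 139 to 261 CPM) and was not called (log2 change 0.32, 95% interval 0.02 to 0.61, adjusted p 0.0697).

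The interferon-inducible GTPases attack the membranes of vacuoles that hold pathogens. Gbp2 rose from 1.22 to 6.63 CPM (median 1.9) to 4.97 to 18.5 CPM (median 9.48), with a log2 change of 1.87 (SE 0.42, adjusted p 0.000303). Its ranges overlapped through WT control replicate 3. Igtp, which encodes IRGM3, was at 12.9 to 23.2 CPM in controls and 32.8 to 71.2 CPM on CD-HFD with no overlap (log2 change 1.24, SE 0.206, adjusted p 3.39e-06). Irgm1, a regulator of the other GTPases, rose by 0.70 on the log2 scale (SE 0.211, adjusted p 0.00565) with overlapping ranges. Iigp1 was at 134 to 284 CPM in controls and 198 to 352 CPM on CD-HFD, and was not called (log2 change 0.15, 95% interval -0.17 to 0.48, adjusted p 0.452). Irgm2 was not called either (0.50, 95% interval -0.02 to 1.02, adjusted p 0.106). In antigen processing, the immunoproteasome subunit gene Psmb8 was at 22.9 to 35.1 and 45.3 to 66.9 CPM (log2 change 1.0, SE 0.154, adjusted p 9.34e-07). Tap1, a subunit of the transporter that carries peptides to MHC class I, was at 15.9 to 29.2 and 40.8 to 57.7 CPM (log2 change 1.07, SE 0.172, adjusted p 1.82e-06). Neither overlapped. Of the 16 genes with an ISRE core in the promoter window 13 were called higher, and of the 15 without one also 13, with median log2 changes of 2.0 and 1.07, and Stat2, Bst2 and Irgm2 held a match and were not called. For the GAS core, 6 of 9 genes with a match were called higher (median 0.997) and 20 of 22 without one (1.93). The medians thus stood in the opposite order for the 2 cores, while the share called was higher without a match for each.

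**Figure D2:**
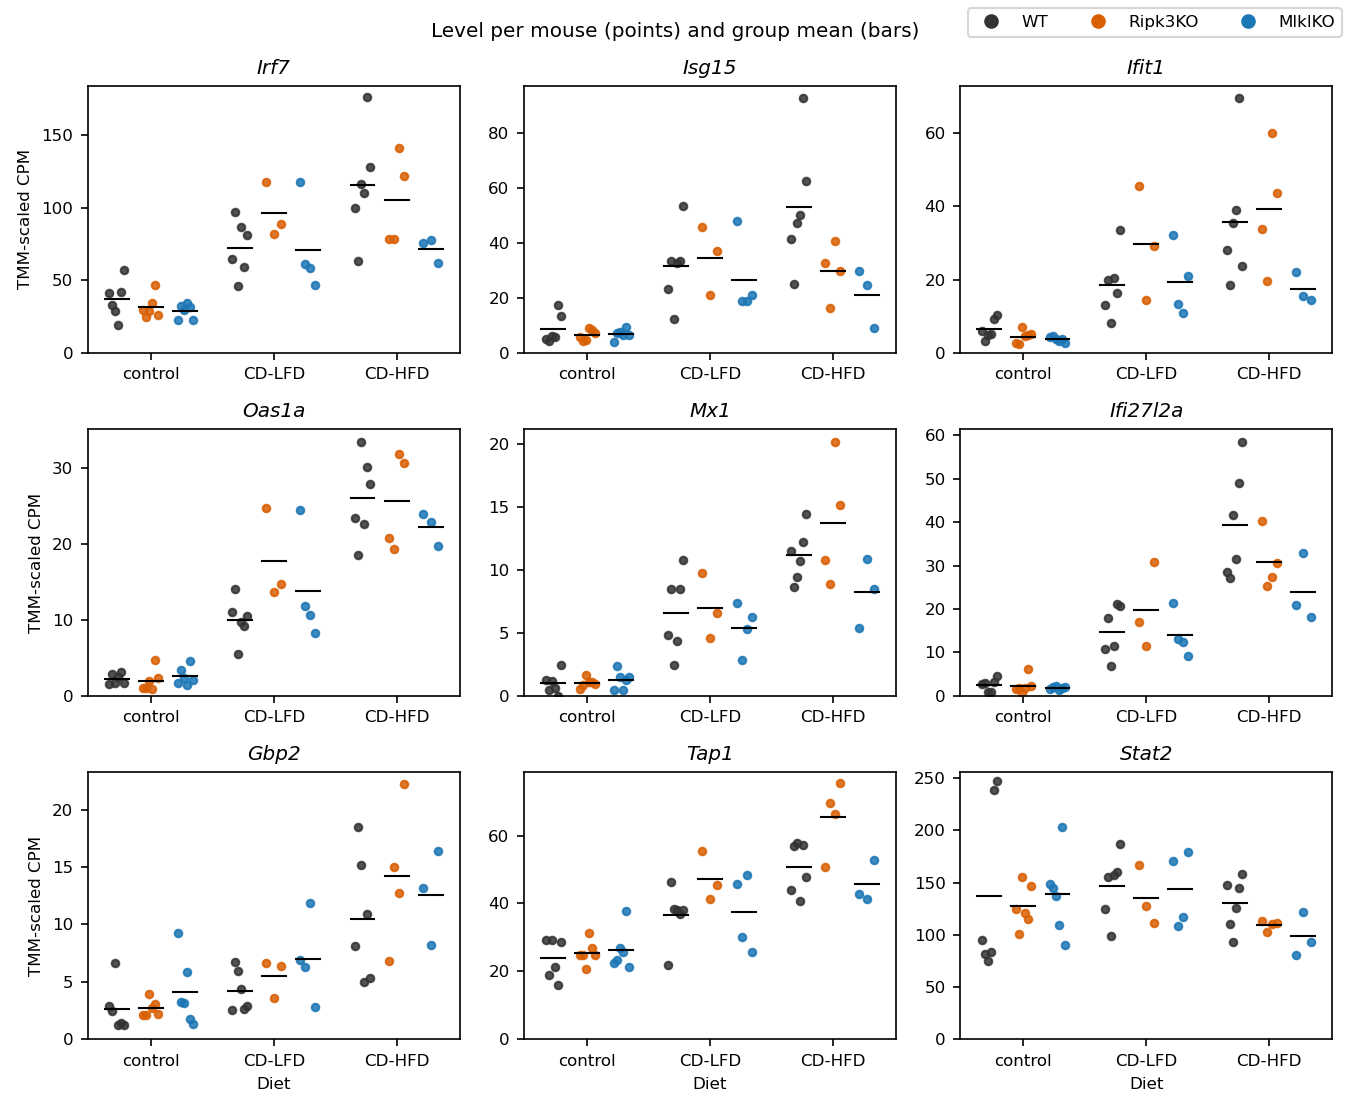
TMM-scaled CPM of 9 genes in each mouse (points) with group means (bars), by diet on the x axis and genotype by colour; the y axes differ between panels. Oas1a, Mx1 and Ifi27l2a lie near the bottom of their axes in all control groups and climb over the diets, while Stat2 shows no such order and has 2 high WT control mice.

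CD-LFD gave a smaller version of this pattern in WT livers. It raised 25 of the 41 genes and lowered none, where 27.7% of all tested genes were called and 13.7% were called higher (2040 genes higher and 2077 lower, or 4142 and 737 by library totals). The median log2 change was 0.94 (-0.03 over all tested genes), 40 of the 41 were above 0 (47.4% of all tested genes), and in 12 every CD-LFD mouse was above every control mouse (5.05% of all tested genes). Those 12 were Usp18, Ifit2, Ifit3, Oas1a, Oas1g, Oas3, Oasl2, Rsad2, Ifi44, Ifi27, Ifi27l2a and Igtp. Beside the 6 genes not called on CD-HFD, those not called on CD-LFD were Irf9, Ifit3b, Mx2, Ifih1, Eif2ak2, Parp14, Gbp2, Irgm1, Psmb8 and Psmb9.

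The 5 largest changes on CD-LFD were in Oas1g (2.86, SE 0.469, adjusted p 1.34e-05), Ifi27l2a (2.57, SE 0.374, adjusted p 1.85e-06), Mx1 (2.53, SE 0.403, adjusted p 8.4e-06), Ifi44 (2.47, SE 0.438, adjusted p 4.49e-05) and Usp18 (2.32, SE 0.288, adjusted p 7.74e-08), all on the log2 scale. Ifi27l2a stood at 6.99 to 21.2 CPM and Usp18 at 16.8 to 31.6 CPM, above all control mice. Isg15 was at 12.3 to 53.4 CPM (median 32.9), which overlapped the controls only through WT control replicates 5 and 6, and rose by 1.94 (SE 0.361, adjusted p 8.91e-05). Irf7 was at 45.8 to 96.7 CPM and rose by 0.97 (SE 0.234, adjusted p 0.00169). Tap1 rose by 0.60 (SE 0.172, adjusted p 0.00808), while Psmb8 was at 24.9 to 38.5 CPM and was not called (0.20).

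The 4 WT control libraries with the other clock ratio were left out as a check chosen after the data had been seen, which left 2 controls. CD-HFD, whose mice had clock ratios of -6.05 to -2.09, then raised 37 genes, 34 of them among the 35. Some changes grew by over 1.5 times. On CD-HFD, Oas2 went to 4.54, Irf9 to 1.10 and Irgm1 to 1.20 on the log2 scale. Oas3 reached a fitted 9.22, which has no firm size because both remaining controls were at 0. The WT CD-LFD ratios (-2.63 to -0.27) lay nearer to the 4 controls left out than to the 2 kept, so for CD-LFD this removal widened the clock gap and is no check of it. CD-LFD then raised 31 genes, with Oas2 at 3.79, Usp18 at 3.69 and Irf7 at 1.5.

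Set directly against CD-LFD, CD-HFD raised 18 of the 41 genes in WT livers and lowered none (21.1% of all tested genes were called, 13.7% higher, with 2040 genes higher and 1100 lower, or 3058 and 500 by library totals). The median log2 difference was 0.55. The largest were in Oas3 (1.68, SE 0.304, adjusted p 6e-05) and Ifi27l2a (1.43, SE 0.294, adjusted p 0.000328). In Oas3 the CD-LFD mice stood at 2.13 to 3.07 CPM and the CD-HFD mice at 4.86 to 13.4 CPM. The 6 genes with no overlap between these diets (7.63% of all tested genes had none) were Ifit2, Oas1a, Oas3, Oasl2, Ifi27l2a and Psmb8. Psmb8, which CD-LFD had left uncalled against control, was 0.80 higher on CD-HFD than on CD-LFD (adjusted p 9.48e-05). Irf7 (0.69, adjusted p 0.0253), Ifit1 (0.96, adjusted p 0.0215), Gbp2 (1.31, adjusted p 0.00954) and Tap1 (0.47, adjusted p 0.0348) were also called, and Isg15, Usp18, Oas2, Mx1 and Rsad2 were not. Of 19 other settings, Irf7 and Ifit1 lost the call in 4 each and Tap1 in 5. Single mice moved this count. It was 10 without WT CD-HFD replicate 5, the highest of its group in 24 of the 41 genes (17.2% of all genes), and 11 without WT CD-LFD replicate 3, the deepest library and the lowest of its group in 28. The clock ratios also differed, at -2.63 to -0.27 on CD-LFD and -6.05 to -2.09 on CD-HFD. With the clock ratio as a covariate 25 members were called, 17 of them among the 18.

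In Ripk3KO livers CD-HFD raised 33 of the 41 genes over Ripk3KO controls and lowered none, where 46.3% of all tested genes were called and 24.6% were called higher (3657 genes higher and 3227 lower, or 6870 and 737 by library totals). The median log2 change was 1.72. CD-LFD raised 29 and lowered none (24.1% of all tested genes called, 14% higher, with 2075 genes higher and 1501 lower, or 3910 and 513 by library totals), with a median of 1.58, and all 41 changes were above 0 (50.9% of all tested genes). Isg15 ran from 4.18 to 8.81 CPM in the 6 controls (median 6.4), stood at 45.5, 20.8 and 36.8 CPM in the 3 CD-LFD mice and at 32.5, 16.1, 40.7 and 29.7 CPM in the 4 CD-HFD mice. CD-LFD raised it by 2.41 on the log2 scale (SE 0.403, adjusted p 2.56e-05). The CD-HFD change was 2.20 (SE 0.379, adjusted p 7.44e-06), and neither diet group overlapped the controls. Oas1a was at 0.944 to 4.75 CPM in controls, 24.7, 13.7 and 14.8 CPM on CD-LFD and 20.8, 19.4, 31.8 and 30.7 CPM on CD-HFD (log2 changes 3.08 and 3.62). Usp18 had the largest CD-LFD change of the 41 in this genotype (3.25, SE 0.314, adjusted p 3.39e-10) and Oas1g the largest on CD-HFD (3.99, SE 0.429, adjusted p 4.61e-10). Between CD-HFD and CD-LFD, 4 genes were called, all higher and with no overlap. Of all tested genes 8.83% were called, 5.75% called higher (854 genes higher and 458 lower, or 1360 and 171 by library totals), and 16% lay wholly above the other group. The 4 were Ifit2 (1.21), Oas3 (1.42), Oasl2 (1.28) and Psmb8 (0.62). None of the 4 was called without Ripk3KO CD-LFD replicate 2, and Psmb8 lost its call in 7 of 14 other settings (adjusted p up to 0.302). The diet counts were 36 on CD-HFD and 33 on CD-LFD when the library labelled Ripk3KO control replicate 5 was left out. Ripk3KO CD-LFD replicate 1 was the highest of its group in 36 of the 41 genes (26.3% of all genes), and without it CD-LFD raised 25.

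In MlklKO livers CD-HFD raised 27 of the 41 genes over MlklKO controls and lowered 1 (45.2% of all tested genes called, 24.9% higher and 20.3% lower; 3699 and 3019 genes, or 6364 and 727 by library totals), with a median log2 change of 1.32. CD-LFD raised 30 and lowered none (37.9% called, 19.7% higher, with 2925 genes higher and 2713 lower, or 3733 and 1913 by library totals), with a median of 1.04. Isg15 was at 3.87 to 9.24 CPM in the 6 controls (median 6.86), at 48.0, 18.6, 18.9 and 20.8 CPM in the 4 CD-LFD mice and at 29.6, 24.6 and 8.78 CPM in the 3 CD-HFD mice. The last of these, CD-HFD replicate 4, lay within the control range, and the log2 change was 1.62 (SE 0.407, adjusted p 0.00119). On CD-LFD it was 1.98 (SE 0.376, adjusted p 9.64e-05). The difference between these diets was not called (-0.36, 95% interval -1.23 to 0.51), and single mice set its direction, since the CD-LFD change was 1.51 without CD-LFD replicate 1. Ifi27l2a had the largest CD-HFD change (3.72, SE 0.402, adjusted p 5.45e-10), and Oas1g the largest CD-LFD change (3.05, SE 0.433, adjusted p 1.15e-06). The clock ratios of MlklKO controls (-4.87 to -3.60) overlapped neither those on CD-LFD (-6.70 to -5.73) nor those on CD-HFD (-5.93 to -5.09). With the clock ratio as a covariate 29 members were called on CD-HFD, among them all 28 above. For CD-LFD that fit called 32, among them all 30.

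The gene lowered on CD-HFD in MlklKO livers was Iigp1, a GTPase that helps break open pathogen vacuoles. It ran from 214 to 426 CPM in controls (median 370), stood at 316, 213, 308 and 218 CPM on CD-LFD and at 217, 166 and 173 CPM on CD-HFD. The log2 change on CD-HFD was -0.89 (SE 0.206, adjusted p 0.000451), and -0.37 (adjusted p 0.129) when libraries were scaled by their totals alone. Between CD-HFD and CD-LFD in this genotype, 23.7% of all tested genes were called (14.6% higher, 9.14% lower; 2164 and 1359 genes, or 4776 and 387 by library totals), and of the 41, Ifit2 (1.02), Oas3 (1.40) and Oasl2 (0.94) rose and Bst2 fell. Bst2 was at 278, 219, 192 and 211 CPM on CD-LFD and 149, 148 and 120 CPM on CD-HFD, with all 3 CD-HFD mice below all 4 others, as in 16.7% of all tested genes (log2 difference -0.70, adjusted p 0.00712). With library totals alone as the scale Bst2 was not among the genes called. Without MlklKO CD-HFD replicate 4, the mouse with the low Isg15 value, Oas3 alone of the 4 was called (1.38, adjusted p 0.0279). Of 14 other settings Ifit2 lost its call in 5 and Oasl2 in 6, while Oas3 kept it in all 14. MlklKO CD-LFD replicate 1 was the highest of its group in 34 of the 41 genes (17.6% of all genes), and without it CD-LFD raised 24.

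**Figure D3:**
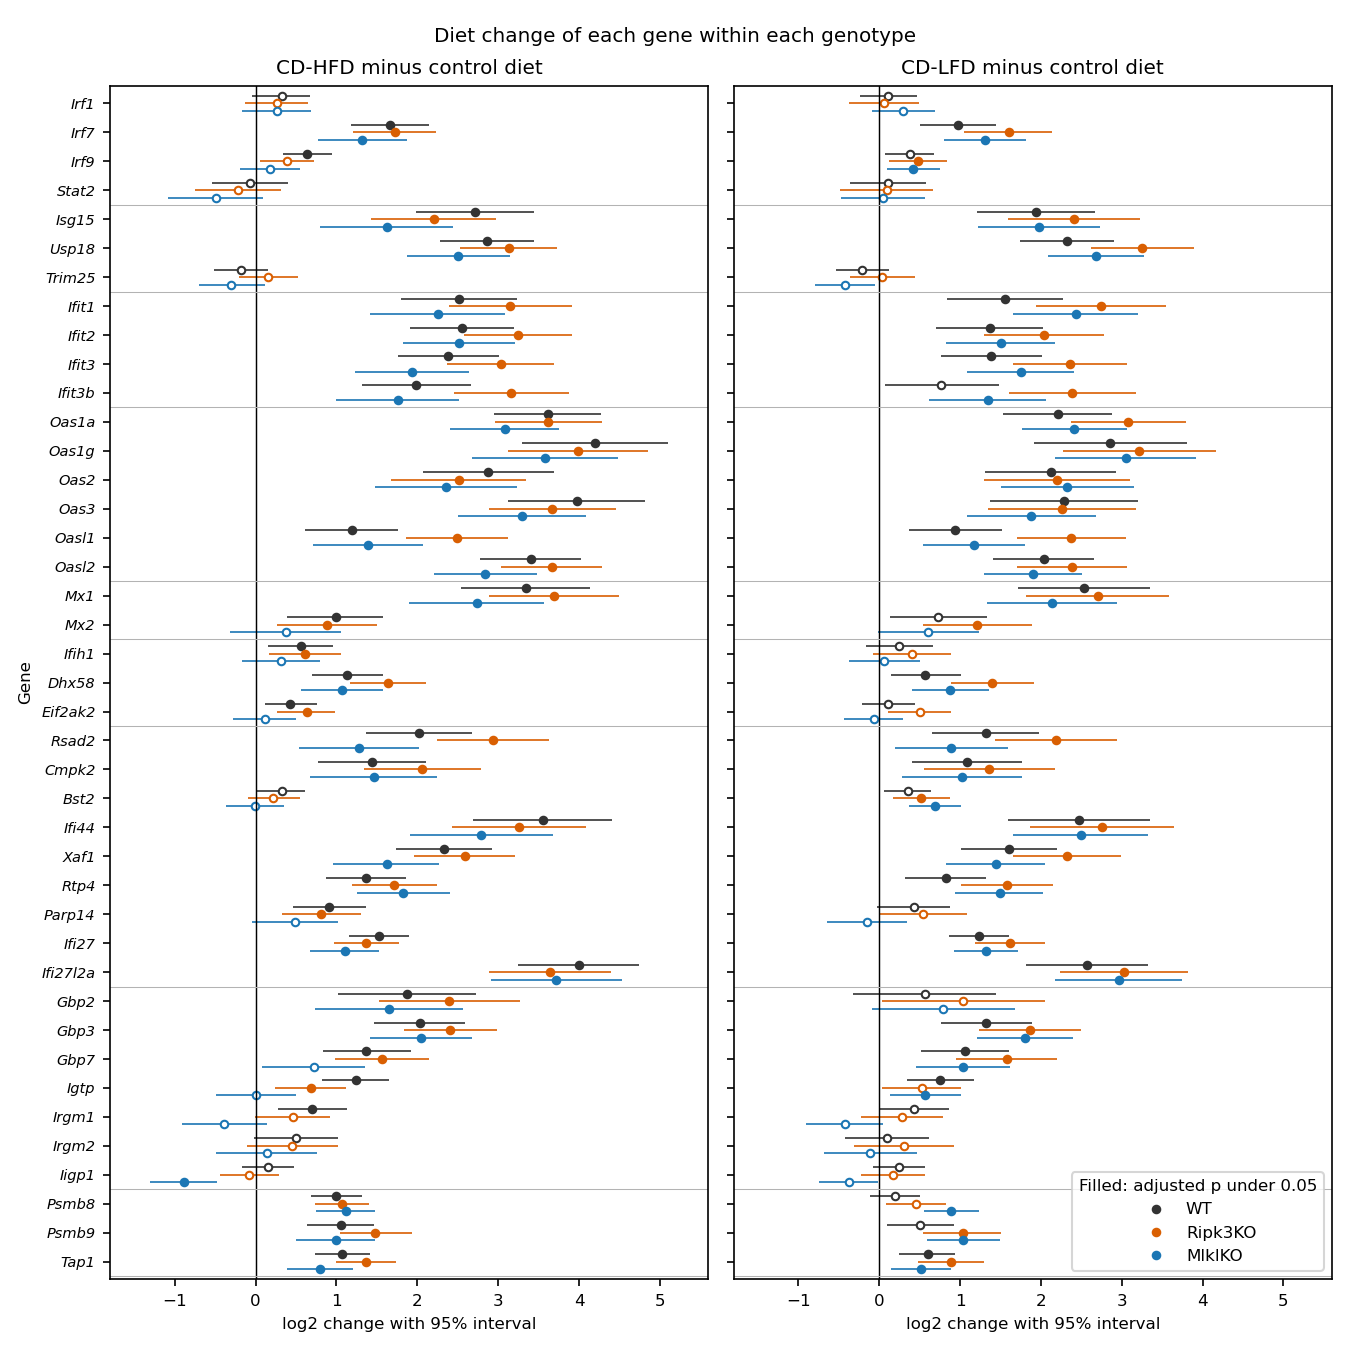
Log2 change of each gene (rows) on CD-HFD (left) and CD-LFD (right) against control diet in WT, Ripk3KO and MlklKO livers (colours), with 95% intervals; filled points have an adjusted p under 0.05. The IFIT, OAS and Mx1 rows lie to the right of 0 in all 3 genotypes, and Iigp1 in MlklKO on CD-HFD is the single filled point to the left of 0.

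Across the 6 comparisons of a choline-deficient diet with control, 23 of the 41 genes rose in every one, as did 6.05% of all tested genes. They were all 6 OAS genes, Ifit1, Ifit2 and Ifit3, Irf7, Isg15, Usp18, Mx1, Dhx58, Rsad2, Cmpk2, Ifi44, Xaf1, Rtp4, Ifi27, Ifi27l2a, Gbp3 and Tap1. Of the 23, 18 kept all 6 calls in every other setting tried, and the 5 that did not lost them on CD-LFD. In MlklKO livers on that diet Rsad2 lost the call in 5, Tap1 in 6, Cmpk2 in 4 and Dhx58 in 1 of 17 settings. In WT livers Dhx58 lost it in 8 of 20 and Cmpk2 and Rtp4 in 1 each, and in Ripk3KO livers Cmpk2 lost it in 2 of 16. A further 3 rose in 5 (Ifit3b, Gbp7 and Psmb9), 2 in 4 (Igtp and Psmb8), 3 in 3 (Irf9, Mx2 and Gbp2), 4 in 2 (Ifih1, Eif2ak2, Bst2 and Parp14) and Irgm1 in 1. Irf1, Stat2, Trim25, Irgm2 and Iigp1 rose in none. The comparisons within a genotype share control mice and so are not independent of each other.

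Each knockout was next set against WT on the same diet. Strain and litter are not given, so a difference between genotypes cannot be assigned to blocked necroptosis alone. On CD-HFD no member was called in Ripk3KO livers (0.377% of all tested genes were called) or in MlklKO livers (0% of all tested genes), by edgeR or by DESeq2. At an unadjusted p under 0.05 the edgeR test gave 4 members for Ripk3KO (8.73% of all tested genes) and 10 for MlklKO. All 10 were lower in MlklKO than in WT: Irf7, Isg15, Ifit1, Ifit3, Bst2, Gbp7, Igtp, Iigp1, Psmb8 and Psmb9. At that unadjusted level 8.38% of all tested genes differed and 3.94% were lower. Over the 41 genes the median log2 difference of MlklKO from WT was -0.36, against 0.03 over all tested genes, and 6 of the 41 were above 0 (53.2% of all tested genes). The 41 genes can move together, so counts of genes with the same direction are not separate observations.

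The sizes of these differences carry wide intervals. For Isg15 the MlklKO difference was -1.35 (95% interval -2.19 to -0.51, adjusted p 0.568), for Ifit1 -1.05 (-1.85 to -0.24, adjusted p 0.587), and for Igtp -0.79 (-1.29 to -0.28, adjusted p 0.568). Igtp stood at 30.4, 22.6 and 26.1 CPM in the 3 MlklKO mice, below all 6 WT mice on CD-HFD. Gbp7, Psmb8 and Psmb9 separated in the same way, which makes 4 of the 41, beside 2.42% of all tested genes. Ifit1 did not, with 22.1, 15.5 and 14.5 CPM in MlklKO against 18.5 to 69.6 CPM in WT. In Ripk3KO livers the Isg15 difference was -0.84 (-1.57 to -0.11, adjusted p 0.461), and Trim25 (0.48), Ifit3b (0.66) and Tap1 (0.37) had positive differences. The count of called members in MlklKO stayed 0 without the library labelled MlklKO CD-HFD replicate 1. With all 3 MlklKO mice no tested gene was called, so this count had little room to move. Over 16 other settings the Isg15 difference of MlklKO from WT ran from -1.68 to -1.01.

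On CD-LFD no member was called in either knockout by edgeR or by DESeq2, where 1.1% of all tested genes were called in Ripk3KO and 2.56% in MlklKO. At an unadjusted p under 0.05 there were 10 members in Ripk3KO, all higher than WT, and none in MlklKO (15.6% of all tested genes). Over all tested genes 11.4% passed that level in Ripk3KO and 6.53% were higher. The largest were Ifit3b (1.10, 95% interval 0.38 to 1.81, adjusted p 0.141), Oas1a (0.84), Mx2 (0.84) and Usp18 (0.83, 95% interval 0.24 to 1.42, adjusted p 0.194), and 38 of the 41 differences were above 0 (50.8% of all tested genes; median 0.40, against 0.01 over all tested genes). The 41 genes can move together, so these are not 38 separate observations. In mean log2 level of the 41 the Ripk3KO mice stood at 5.29, 4.57 and 4.89, against 4.10 to 4.84 in WT. Ripk3KO replicate 1, at 5.29, was the highest of its group in 36 of the 41 genes. Usp18 stood at 53.7, 34.1 and 39.4 CPM in the 3 Ripk3KO mice, each above the WT range of 16.8 to 31.6 CPM. The clock ratios of these groups did not overlap either (-2.63 to -0.27 in WT and -7.06 to -5.91 in Ripk3KO). With the clock ratio as a covariate the Usp18 difference was 1.68 (SE 0.367, adjusted p 0.0564), against 0.63 to 0.95 in the other settings, and no member was called. The part of the clock ratio in these differences was not tested.

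On control diet no member was called in Ripk3KO by edgeR or DESeq2 (4.47% of all tested genes were called), and 3 passed an unadjusted p of 0.05 (20% of all tested genes): Oasl1 (-0.74), Igtp (0.43) and Iigp1 (0.33). With the 4 WT controls of the other clock ratio left out, Iigp1 alone was called (log2 difference 0.90). In MlklKO controls 5 members were called, where 27.1% of all tested genes were called, 13% higher and 14.1% lower. Irgm1 (0.79, SE 0.212, adjusted p 0.0052), Iigp1 (0.59, SE 0.163, adjusted p 0.00587) and Trim25 (0.43, adjusted p 0.0432) were higher than in WT controls. The immunoproteasome genes Psmb8 (-0.55, SE 0.158, adjusted p 0.00887) and Psmb9 (-0.59, SE 0.211, adjusted p 0.0329) were lower. The ranges overlapped for all 5. Psmb8, for example, was at 12.7 to 24.0 CPM in MlklKO controls and 22.9 to 35.1 CPM in WT controls, where WT control replicate 5 was the highest and replicate 1 the lowest. Only Irgm1 was called in all 20 other settings. Trim25 lost its call in 12 of them (log2 difference 0.22 to 0.52, adjusted p up to 0.585), Psmb9 in 10 (log2 difference -0.74 to -0.20, adjusted p up to 0.73) Psmb8 in 2 (adjusted p up to 0.166) and Iigp1 in 1 (adjusted p 0.102). Without WT control replicate 3, 5 or 6, or MlklKO control replicate 1 or 2, the count was 3, namely Irgm1, Iigp1 and Psmb8. Without the 4 WT controls of the other clock ratio 6 members were called, all higher, of which Irgm1 (1.28) and Iigp1 (1.18, adjusted p 0.00064) were among the 5. The others were Irf9 (0.68), Stat2 (0.77), Mx2 (1.83) and Oas3, whose size is not firm because both remaining WT controls were at 0, and Trim25, Psmb8 and Psmb9 were no longer called. With the clock ratio as a covariate 6 were called, of which Irgm1, Iigp1 and Psmb8 were among the 5.

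**Figure D4:**
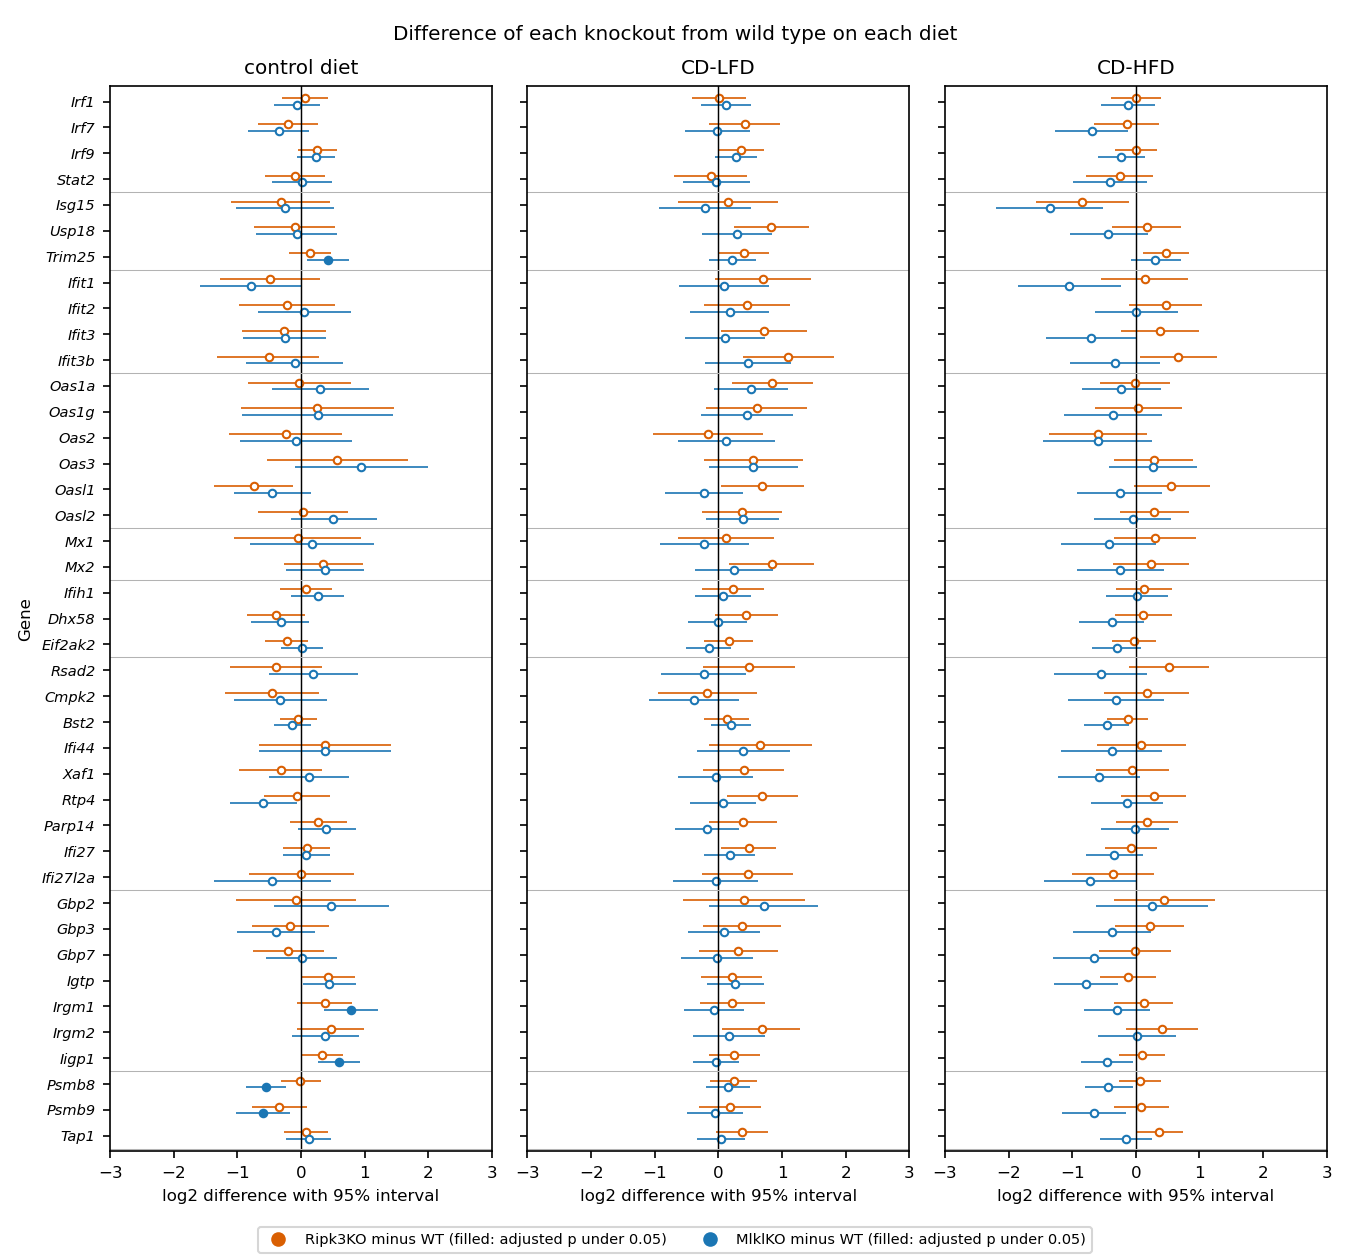
Log2 difference of each knockout from WT (colours) for each gene (rows) on each diet (panels), with 95% intervals; filled points have an adjusted p under 0.05. The filled points are the 5 called genes of MlklKO on control diet, and on CD-HFD most MlklKO points lie left of 0 but none is filled.

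The interaction terms ask whether a diet's change differed between a knockout and WT. For Ripk3KO no member was called on CD-HFD (0.478% of all tested genes) or on CD-LFD (0.0269%) by edgeR or DESeq2. At an unadjusted p under 0.05, 2 members passed on CD-HFD (10.9% of all tested genes) and 6 on CD-LFD (8.28%). For MlklKO on CD-HFD 2 members were called, both GTPases and both lower, where 4.12% of all tested genes were called and 2.54% were lower. The Igtp change was smaller by 1.23 on the log2 scale than in WT (interaction -1.23, SE 0.324, 95% interval -1.89 to -0.58, adjusted p 0.0234). The change within MlklKO was 0.01 and within WT 1.24. Iigp1 had an interaction of -1.05 (SE 0.261, 95% interval -1.58 to -0.52, adjusted p 0.0161), from the -0.89 in MlklKO and the 0.15 in WT.

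The MlklKO control mice enter these terms too. Igtp was at 15.1 to 35.6 CPM in them (median 26.2) and 12.9 to 23.2 CPM in WT controls (median 20.9). Iigp1 was at 214 to 426 CPM and 134 to 284 CPM (medians 370 and 250). Neither call held without MlklKO CD-HFD replicate 4 (adjusted p 0.0645 for Igtp and 0.0578 for Iigp1), and the Igtp call was also lost without replicate 2 (adjusted p 0.0657). Without the 4 WT controls of the other clock ratio 7 members were called (Irf9, Stat2, Mx2, Gbp7, Igtp, Irgm1 and Iigp1). On CD-LFD the MlklKO interaction was called for Psmb8 alone (0.70, SE 0.23, 95% interval 0.23 to 1.16, adjusted p 0.0498), where 8.45% of all tested genes were called and 4.37% were higher (649 genes higher and 607 lower, or 387 and 1108 by library totals). This call was lost in 21 of 30 other settings (adjusted p up to 0.201).

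Genes up and down the pathway were read from lists that are separate from the 41. Of 8 interferon ligands listed, 5 (Ifna1, Ifna2, Ifna4, Ifne and Ifnl2) were not matched to a row of the table and were not analysed here. Of the other 3, Ifnb1 held 0 or 1 count in WT CD-HFD libraries and 0 in every other library. Ifng held 0 to 7 counts per library, and Ifnl3 0 or 1. None of these 3 passed the filter for testing at this depth, so a change in them was not tested. The counts that follow for WT livers on CD-HFD stand beside 23.5% of all tested genes called higher and 47.7% called in either direction. Of the 6 receptor genes, 5 rose and 1 fell. Il10rb, a chain of the type III receptor shared with IL-10, rose by 2.26 (SE 0.196, adjusted p 1.77e-12). The chains of the interferon gamma receptor rose by 1.73 (Ifngr1, SE 0.193, adjusted p 9.95e-10) and 1.27 (Ifngr2, SE 0.197, adjusted p 1.02e-06). Ifnlr1, the specific chain of the type III receptor, was at or under the counting floor of 3 counts in every WT control library and at 2.01 to 3.37 CPM on CD-HFD, so its fitted change (3.63) has no firm size. For the type I receptor, Ifnar1 rose by 0.52 (SE 0.0998, adjusted p 3.63e-05) and Ifnar2 fell by 0.33 (SE 0.1, adjusted p 0.00568).

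In Ripk3KO livers on CD-HFD 4 of the 6 receptors rose and none fell, where 46.3% of all tested genes were called and 24.6% called higher. In MlklKO livers on CD-HFD 4 rose and 1 fell, beside 45.2% called and 24.9% called higher. On CD-LFD 2 rose and 1 fell in Ripk3KO livers (24.1% of all tested genes called), and 1 rose and 1 fell in MlklKO livers (37.9% called). Il10rb was higher and Ifnar2 lower in both. Between the knockouts and WT no receptor was called on either choline-deficient diet. On control diet none was called in Ripk3KO, while 3 were higher in MlklKO, where 27.1% of all tested genes were called. These were Ifnar1 (0.46, adjusted p 0.000696), Ifngr1 (0.91, adjusted p 0.0005) and Ifngr2 (1.01, adjusted p 0.000198). This comparison includes the 4 WT controls of the other clock ratio (0.10 to 2.63), while MlklKO controls stood at -4.87 to -3.60. The part of the clock ratio in these 3 receptor differences was not tested. Of 11 genes for signal transduction, 4 rose in WT on CD-HFD and none fell (36.4%), among them Irf8 (1.87, adjusted p 2.26e-07), a factor of myeloid cells, and Socs1 (1.61, adjusted p 0.0145), a feedback inhibitor of JAK kinases. Of 16 genes for nucleic acid sensing, 12 rose and 1 fell. The largest were Tlr7 (3.44, adjusted p 6.33e-08), a receptor for single-stranded RNA, and Zbp1 (2.95, adjusted p 1.7e-10), a sensor of Z-form nucleic acid that can engage RIPK3. Mavs, the mitochondrial adaptor of the RNA sensors, fell by 0.92 (adjusted p 0.00156). Of 9 further GTPases, 8 rose, led by Tgtp1 (2.85) and Gvin1 (2.69). Of 11 class I presentation genes, 6 rose and 1 fell, among them H2-D1 (1.36, adjusted p 4.61e-12) and Tap2 (1.10) upward and Erap1 (-0.74, adjusted p 0.02) downward. Of 9 interferon-induced chemokine and membrane genes, 7 rose, with Ccl5 (4.02, adjusted p 5.32e-09) and Cxcl10 (3.07, adjusted p 1.94e-07), chemokines for T cells, the largest. On CD-LFD the counts of higher genes in these lists were 5 of 6 receptors, 3 of 11 for signal transduction, 8 of 16 for nucleic acid sensing, 7 of 9 GTPases, 6 of 11 for class I presentation and 6 of 9 chemokine and membrane genes, beside 13.7% of all tested genes called higher and 27.7% called. In signal transduction the 3 of 11 (27.3%) were all higher.

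Markers of several cell types moved with the diets beside these genes. In WT livers 23.5% of all tested genes were called higher on CD-HFD and 13.7% on CD-LFD, and 47.7% and 27.7% in either direction. The summed level of 4 pan-leukocyte markers was 18.6 to 39.7 CPM in WT controls, 60.0 to 105 on CD-LFD and 175 to 256 on CD-HFD, and all 4 rose on each diet. The sum of 4 monocyte markers was 2.34 to 8.66, 15.1 to 35.5 and 43.1 to 74.3 CPM, with 4 of 4 higher on CD-HFD and 3 of 4 on CD-LFD. The 10 T and NK cell markers summed to 2.68 to 5.47, 4.46 to 16.6 and 13.3 to 34.3 CPM, and 8 of the 9 tested rose on CD-HFD. The 5 conventional dendritic cell markers summed to 3.91 to 12.7, 14.4 to 32.2 and 46.3 to 88.8 CPM, and all 5 rose on each diet. Plasmacytoid dendritic cells, a main source of type I interferon, were marked by 4 genes of which 2 could be tested. Their sum was 0.456 to 1.46, 1.39 to 6.64 and 4.75 to 6.91 CPM, and Klk1 was at 0 in all WT controls. The 6 hepatocyte markers all fell on CD-HFD (summed 85701 to 152110 CPM in controls and 53129 to 89089 CPM on CD-HFD), as did all 5 endothelial markers (153 to 192 and 67.7 to 111 CPM). Lipid-associated macrophage markers summed to 48.3 to 68.4 CPM in controls and 1109 to 2275 CPM on CD-HFD, and 5 of 5 rose. Of the other lists, 3 of 8 macrophage and Kupffer cell markers rose and 3 fell, and 5 of 6 stellate cell and fibroblast, 4 of 4 cholangiocyte, 1 of 4 tested B and plasma cell and 1 of 2 tested neutrophil markers rose. The B and plasma cell count was near the share of all tested genes called higher. Markers moved with the diets in the knockouts too. On CD-HFD all 4 pan-leukocyte, all 4 monocyte and all 5 lipid-associated macrophage markers rose in both, and hepatocyte markers fell (6 of 6 in Ripk3KO, 4 of 6 in MlklKO). Of all tested genes 24.6% were called higher there in Ripk3KO and 24.9% in MlklKO, and 46.3% and 45.2% in either direction. The pan-leukocyte sum in Ripk3KO livers was 12.3 to 47.5 CPM on control diet, 50.5 to 101 on CD-LFD and 169 to 227 on CD-HFD. The same sum in MlklKO livers was 18.3 to 33.8, 57.3 to 84.6 and 191 to 252 CPM. On CD-LFD all 4 pan-leukocyte and 3 of 4 monocyte markers rose in both knockouts, where 14% (Ripk3KO) and 19.7% (MlklKO) of all tested genes were called higher. The part of these shifts in the changes of the 41 genes was not tested. Between MlklKO and WT on CD-HFD no marker of these lists was called. At an unadjusted p under 0.05, where 4.44% of all tested genes were higher in MlklKO, 4 of 5 endothelial markers (median log2 difference 0.65) and 3 of 8 macrophage and Kupffer cell markers (0.77) were higher, as were 1 hepatocyte and 1 lipid-associated macrophage marker, and no marker of any list was lower. The endothelial sum was 101 to 149 CPM in the 3 MlklKO mice against 67.7 to 111 in WT, the macrophage and Kupffer cell sum 330 to 475 against 221 to 351, and the pan-leukocyte sums overlapped. The part of these marker differences in the lower MlklKO levels of the 41 genes was not tested. On control diet the lipid-associated macrophage sum was 84 to 144 CPM in MlklKO livers and 48.3 to 68.4 CPM in WT livers. The sums of every other list overlapped there. The part of this difference in the members called between MlklKO and WT on control diet was not tested.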

How the data were processed

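Whole-number read counts per Ensembl gene were deposited by the authors as a single table for liver RNA (RNeasy extraction, directional NEBNext libraries, per the labels' protocols), and the submitters' processing notes name FastQC, STAR, HTSeq, edgeR, limma and builds GRCm39 and mm39, with no versions. Symbols were matched for 34373 of 35249 identifiers (876 unmatched, 0.0838% of counts). Genes passing filterByExpr (minimum count 10; 14862 genes, 99.8% of counts) were scaled by TMM (factors 0.799 to 1.34) and fitted in edgeR 4.0.16 (R 4.3.3) with 1 mean for each of 9 groups and 19 contrasts. No fit imputed or dropped a library unless stated. Nothing beyond 1 library per mouse describes replication, and no pair of libraries within a group was a duplicate (chi-square per degree of freedom 6.59 to 96.7). Alternatives were RLE factors, library totals alone, no count filter, DESeq2 1.42.0, the compared groups only, the replicate number as a block, a clock-ratio covariate and leaving out each library; leaving out 4 WT controls was added after seeing the data. The members, role groups, pathway lists and markers were chosen with earlier results of these data known. Full statistics were given for 22 fixed representatives of the roles, the 5 largest called changes in the WT diet comparisons, the 2 largest elsewhere and any called interaction; pathway genes were named among the 2 largest called in each direction, receptors and ligands at any value. Floors are 3 counts and cover counting error only. Promoter letters are RefSeq's; 10 members had none in the table used here. Counting by strand is not stated, so overlapping and antisense genes cannot be told apart. Shared 50-base words were counted between GENCODE M21 transcripts.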

Additional observations from a re-analysis of the deposited data

Results flagged for a closer look

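Among 154 sets of values (22 representative genes in the 7 groups of 4 or more mice), 12 held 1 mouse set apart from the rest of its group by Dixon's test, and chance alone gives about 1 in 20. MlklKO CD-LFD replicate 1 was high in Irf9 (84.7 CPM, next 61.1), Isg15 (48 CPM, next 20.8) and Ifi27 (359 CPM, next 209). The library labelled Ripk3KO control replicate 5 was high in Oas2 (8.93 CPM, next 3.91) and Ifi27l2a (6.14 CPM, next 2.16). The others were single values. Oasl2 was low in WT control replicate 2 (1.46 CPM, next 3.40). Values were high for Gbp2 in WT control replicate 3 (6.63 CPM, next 2.90), Psmb8 in WT control replicate 5 (35.1 CPM, next 26.1), Rsad2 in WT CD-LFD replicate 6 (25 CPM, next 15.6), Bst2 in Ripk3KO control replicate 4 (192 CPM, next 153), Ifit3 in MlklKO control replicate 2 (10.8 CPM, next 7.03) and Tap1 in MlklKO control replicate 5 (37.8 CPM, next 26.7). The diet change differed between MlklKO and WT by the interaction test for Igtp (-1.23) and Iigp1 (-1.05) on CD-HFD, 2 of the 41 genes beside 4.12% of all tested genes, and for Psmb8 (0.70) on CD-LFD, 1 of the 41 beside 8.45%. These shares do not set the 41 apart from other genes. Both CD-HFD calls were lost without MlklKO CD-HFD replicate 4, and the Psmb8 call was lost in 21 of 30 other settings.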

How the results depend on the processing

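Of 2395 recomputed values of named genes, 2279 kept their direction and their side of the threshold, 116 lost the call and 0 reversed. Nearly all of these genes were named because the main fit called them, so the total cannot show calls gained by other members. With libraries scaled by their totals, the all-gene median moved from -0.07 to 0.43 (WT CD-HFD) and from -0.03 to 0.27 (WT CD-LFD); the members' CD-HFD median went from 1.44 to 1.92. That scale gave 28 members for WT CD-HFD against CD-LFD, 11 for MlklKO CD-HFD against CD-LFD and 2 for the MlklKO interaction with CD-LFD. These 2 were Iigp1 (-0.79) and Irgm1 (-1.01), both lower, and Psmb8 was not called. Ripk3KO against WT on control diet gave 1 with the clock covariate and 1 without the 4 WT controls, which also gave 7 and 3 for the MlklKO interactions with CD-HFD and CD-LFD. The 3 were Cmpk2, Iigp1 and Irgm1, all lower, again without Psmb8. MlklKO against WT on control diet gave 2 without the filter and 2 with the compared groups only, and 6 with the clock covariate and 6 without the 4 WT controls, which shared 3 and 2 with the 5. The MlklKO interaction with CD-HFD gave 1 with the compared groups only, and that with CD-LFD 0 under RLE, no filter, the clock covariate and the compared groups only. Causes were not tested. Leaving out 1 library gave 10 to 22 (WT CD-HFD against CD-LFD), 0 to 3 (the same in Ripk3KO), 1 to 6 (MlklKO; 1 without CD-HFD replicate 4, 6 without CD-LFD replicate 1), 3 to 6 (MlklKO against WT, control diet; 3 without WT control replicate 3, 5 or 6 or MlklKO control replicate 1 or 2), 0 to 3 and 0 to 2 (MlklKO interactions), 33 to 36 (WT CD-HFD) and 24 to 29 (WT CD-LFD). Same-numbered mice did not deviate together from their group means (mean correlation 0.0139, against -0.00248 for other pairs). Of same-numbered pairs 47 of 146 were over 0.1, and of other pairs 202 of 707. With the replicate number as a block, members called were 35 for WT CD-HFD, 29 for WT CD-LFD, 4 for Ripk3KO CD-HFD against CD-LFD (Psmb8 lost, 0.51, adjusted p 0.0674) and 4 for MlklKO against WT on control diet. The Iigp1 interaction was lost with the compared groups only (adjusted p 0.0805).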
